A study of Mus musculus with 2 samples.

Results

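Histone genes with a protein-coding transcript were taken from the annotation by their symbols: those starting with Hist and a digit, H2af, H3f3 or H1f. The rule gave 82 members among 55536 annotated genes. Of these, 67 have Hist symbols and are called replication-dependent here, and 15 have H2af, H3f3 or H1f symbols and are called replacement. By class the members comprised 10 genes of H1, 27 of H2A, 18 of H2B, 14 of H3 and 13 of H4. The libraries were made from total RNA of the gastrocnemius, a fast calf muscle, of adult male 5xFAD/CAST mice aged 8 to 10 months from The Jackson Laboratory. 5xFAD is a transgenic line that carries human amyloid precursor protein and presenilin genes with familial Alzheimer's disease mutations under a neuronal promoter, and CAST is a wild-derived mouse strain. The labels put both libraries in 1 group (n = 2), with no control genotype, age or tissue. They name separate biosamples under a shared donor entry, so the spread between the libraries may be technical. Each library started from 300 ng of RNA, reduced in ribosomal RNA and with ERCC spike-in transcripts added.

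Most histone proteins are made in S phase, when new chromatin must be packed behind the replication fork. Typically their genes lie in clusters, have no introns, and give mRNAs that end in a conserved stem-loop in place of a poly(A) tail. The stem-loop binding protein reads that structure for processing, translation and decay. Replacement genes lie singly, mostly carry introns and poly(A) signals, and supply nucleosomes outside S phase, which makes them the usual source in cells such as muscle fibres that no longer divide. Because ribosomal RNA was depleted and no poly(A) selection is named in the labels, mRNAs with either kind of end could be counted.

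The stem-loop was searched as a left arm GGNNNT, a loop TTTN and a right arm ANNNCC that pairs with the left arm over all 6 bases, in the 100 bases after the stop codon of the annotated transcripts and on the transcript strand. It was found in 44 of the 67 replication-dependent members, in 1 of the 15 replacement members (H2afx), and in 2 of the other protein-coding genes, which is 0.00917% of them. In 15 replication-dependent members the annotated transcript ends too soon after the stop codon to hold the motif, and in 8 there was room and no match. Room means only that at least 16 bases follow the stop codon. Hist2h3b and Hist1h1a have 37 and 48 bases there. Hist1h2bq and Hist1h2br have it in transcripts of 1254 and 1256 bases, and each also has a coding transcript of 381 bases. The 8 are thus not all shown to lack a stem-loop. The sites of 7 members are printed here, 5′ to 3′ on the transcript, because they show each common form of the loop and come mostly from members with the most RNA. Capitals mark the matched 16 bases.
Hist1h1c: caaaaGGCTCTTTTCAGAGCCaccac
Hist2h2aa2: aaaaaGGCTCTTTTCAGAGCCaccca
Hist1h3e: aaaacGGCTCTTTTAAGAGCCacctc
Hist2h2ac: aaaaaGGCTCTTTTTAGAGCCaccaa
Hist1h4h: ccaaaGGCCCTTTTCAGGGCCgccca
Hist1h4i: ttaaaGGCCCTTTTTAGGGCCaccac
H2afx: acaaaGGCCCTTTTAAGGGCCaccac

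The forms split by class. The form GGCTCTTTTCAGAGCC was held by 26 members of H1, H2A, H2B and H3 and by 0 of H4. Members of H4 held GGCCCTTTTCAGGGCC in 7 cases, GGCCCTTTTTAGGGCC in 2 and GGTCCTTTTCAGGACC in 2, and no member of another class among the 44 held any of these. The form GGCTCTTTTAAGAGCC was held by 6 members, again 0 of H4, and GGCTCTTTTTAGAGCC by Hist2h2ac. H2afx, which encodes the variant that is phosphorylated at DNA breaks, has the G and C stem seen in H4 with a loop not printed for any H4 gene. From the stop codon to the stem-loop the distance was 21 to 58 bases, with a median of 31.

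The level of a gene is given as the deposited TPM, a transcript number scaled by transcript length and to a fixed total per library, so that genes can be compared. Summed over the 82 members it was 841.73 TPM in replicate 1 and 758.51 in replicate 2. The members made up 0.0564% ± 0.0017 (SD, n = 2) of the counts assigned to annotated genes. The libraries held 35350142 and 35580757 expected counts in all, which include 185926 and 168295 counts of ERCC spike-ins that are not in that share. At 1 TPM or more in both libraries there were 40 of 82 members (48.8%), against 45.8% of all annotated protein-coding genes, so the share of histone genes at that level was close to the background. RNA was concentrated in few members: the highest 3 held 38.5% ± 1.5 of the summed TPM and the highest 10 held 70.5% ± 1.3 (SD, n = 2).

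Replication-dependent members summed to 550 TPM in replicate 1 and 497.15 in replicate 2, and replacement members to 291.73 and 261.36. The ratio of replacement to replication-dependent RNA was 0.530 in replicate 1 and 0.526 in replicate 2. It was 0.302 where counts were divided by the length up to the stem-loop, an alternative that raises the replication-dependent level. The larger sum thus came from the members with Hist symbols. These are bulk samples, so fewer cells of a type and less RNA per cell cannot be told apart. The balance differed by class. Replacement genes held 82.9% ± 0.24 of H3 RNA, 47.4% ± 0.91 of H2A RNA and 25.1% ± 0.90 of H1 RNA (SD, n = 2), and with lengths up to the stem-loop 76.9%, 42.8% and 12.3%. H2B and H4 have no replacement member under the rule. Within the replication-dependent sum, H4 held 35.1% and H3 only 5.65%, although 12 replication-dependent H3 genes and 13 H4 genes were measured.

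**Figure D1:**
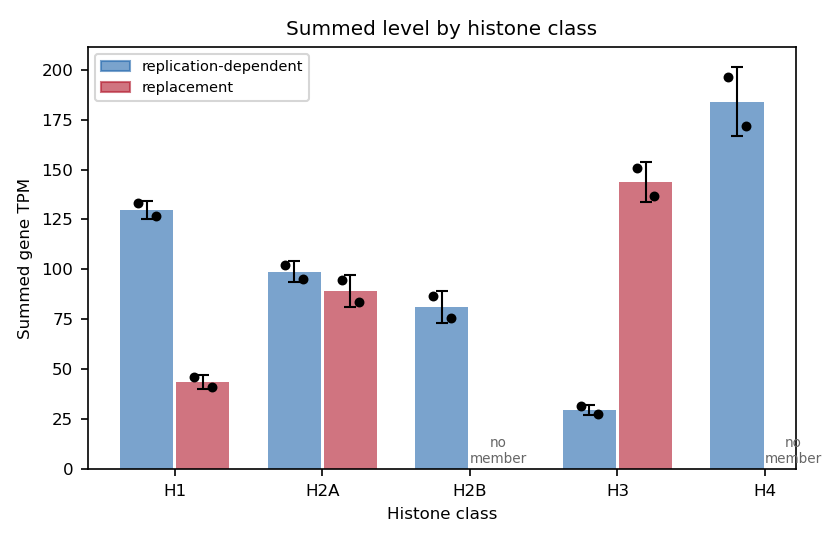
Summed deposited TPM (vertical axis, from 0) of replication-dependent and replacement members by histone class; bars are the mean of the 2 libraries, dots the libraries and error bars the SD. H3 is the class in which the replacement bar, 144 TPM, stands above the replication-dependent bar, 29.6 TPM.

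Linker histones of class H1 sit where DNA enters and leaves the nucleosome. Hist1h1c (H1.2; ENSMUSG00000036181.2, mm10 chr13:23738808-23740367, plus strand) was at 109.42 TPM in replicate 1 and 106.52 in replicate 2, the highest of all replication-dependent members in deposited TPM. H1f0 (ENSMUSG00000096210.2, chr15:79028450-79030504, plus strand), the linker histone of differentiated cells, was at 45.69 and 40.79 TPM. The values of these 2 genes did not overlap, and Hist1h1c was at 2.50 ± 0.15 times the level of H1f0 (SD, n = 2), or 5.85 ± 0.36 times with lengths up to the stem-loop. Hist1h1e (H1.4) was at 22.49 and 19.29 TPM. The other linker genes with any count were near the bottom: Hist1h1d at 0.58 and 0.48 TPM, H1fx at 0.56 and 0.36, Hist1h1a at 0.49 and 0.34, and Hist1h1b at 0.18 and 0.11. One gene, Hist1h1c, therefore held 62.2% ± 1.7 of linker histone RNA.

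In class H2A, the replication-dependent RNA came mostly from Hist2h2aa2 (ENSMUSG00000063954.7, chr3:96239749-96240276, minus strand), at 83.19 and 82.43 TPM. It held 83.9% ± 3.8 of replication-dependent H2A RNA, or 69.7% ± 3.3 with lengths up to the stem-loop. Hist2h2aa2 and Hist2h2aa1 have identical coding sequences, and Hist2h2aa1 was listed at 1.18 and 0 TPM, so the value is best read as that of the pair. Among the variants, H2afz (H2A.Z.1, found at the nucleosomes flanking promoters) was at 31.28 and 23.30 TPM, and its near copy H2afv (H2A.Z.2) at 24.62 and 26.04. Their order changed between the libraries in the gene table. In the kallisto-layout quantification H2afz was higher in both, at 37.8 and 31.8 TPM against 24.2 and 25.9 for H2afv, so the order depends on the quantification. H2afy, which encodes macroH2A1 with its large ligand-binding domain, was at 26.88 and 23.44 TPM, while the macroH2A2 gene H2afy2 was at 0.25 and 0.30. H2afj was at 7.63 and 7.34 TPM and H2afx at 4.19 and 3.27. Hist3h2a followed at 5.12 and 4.77 TPM, and Hist2h2ac at 4.64 and 3.76. Hist1h2ah, Hist1h2ao and Hist1h2ai had means from 1.07 to 1.44 TPM, and Hist1h2ah was listed at 2.88 TPM in replicate 1 and 0 in replicate 2.

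H2B RNA came from several genes. Hist1h2bc (ENSMUSG00000018102.5, chr13:23684199-23692908, plus strand) led at 26.48 and 25.96 TPM with 32.4% ± 2.7 of H2B RNA. The annotated Hist1h2bc transcript, at 1156 bases, is shorter than the span of the gene and held no stem-loop match. Hist2h2bb followed at 17.00 and 12.73 TPM. Hist1h2bq and Hist1h2br, which have identical coding sequences, were listed at nearly equal values, 11.88 and 9.39 TPM for the former and 11.83 and 9.47 for the latter. Hist1h2be was at 5.86 and 5.72 TPM, of which its noncoding transcript Hist1h2be-203 held 67.6% ± 0.75. The other 6 members of H2B with a mean of at least 1 TPM (Hist1h2bg, Hist2h2be, Hist1h2bf, Hist1h2bl, Hist1h2bj and Hist1h2bb) had means from 1.05 to 3.48 TPM.

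In class H3, both H3.3 genes stood above every replication-dependent gene. H3f3a (ENSMUSG00000060743.12, chr1:180800832-180813943, minus strand) was at 122.02 and 111.11 TPM, the highest of all 82 members in deposited TPM. H3f3b (ENSMUSG00000016559.14, chr11:116021912-116027962, minus strand), which encodes the same protein, was at 28.61 and 25.41 TPM. H3f3b thus held 18.8% ± 0.27 of H3.3 RNA. In deposited TPM the highest replication-dependent H3 gene was Hist2h3b, at 10.17 and 6.62 TPM. Hist1h3e followed at 8.78 and 7.13 TPM and Hist1h3i at 4.20 and 5.4. The values of Hist2h3b and Hist1h3e overlap. With lengths up to the stem-loop Hist1h3e was higher, at 17.4 and 14.1 TPM, while Hist2h3b, which had no match, was unchanged. By the rule given below, reads of Hist2h3b were divided among near-copies and those of Hist1h3e were not. Hist2h3c2, Hist1h3f, Hist1h3a and Hist1h3d had means from 1.68 to 2.44 TPM.

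Class H4 has no widely used variant, and its RNA here came from 9 genes at 1 TPM or more in both libraries. Hist1h4h (ENSMUSG00000060981.7, chr13:23531050-23531519, plus strand) was at 75.85 and 67.24 TPM and held 38.9% ± 0.34 of H4 RNA. Hist1h4c followed at 37.95 and 32.73 TPM, under Hist1h4h in both libraries. With lengths up to the stem-loop the order turned, with Hist1h4c at 101 and 87.0 TPM and Hist1h4h at 85.3 and 75.6, and Hist1h4h then held 22.2% ± 0.29 of H4 RNA. Hist1h4d was at 25.38 and 21.10 TPM and Hist1h4m at 23.36 and 19.39, which overlap. Hist1h4i was at 16.07 and 15.19 TPM and Hist1h4f at 7.53 and 5.56. Hist2h4, Hist1h4k, Hist4h4 and Hist1h4a had means from 1.24 to 3.23 TPM.

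**Figure D2:**
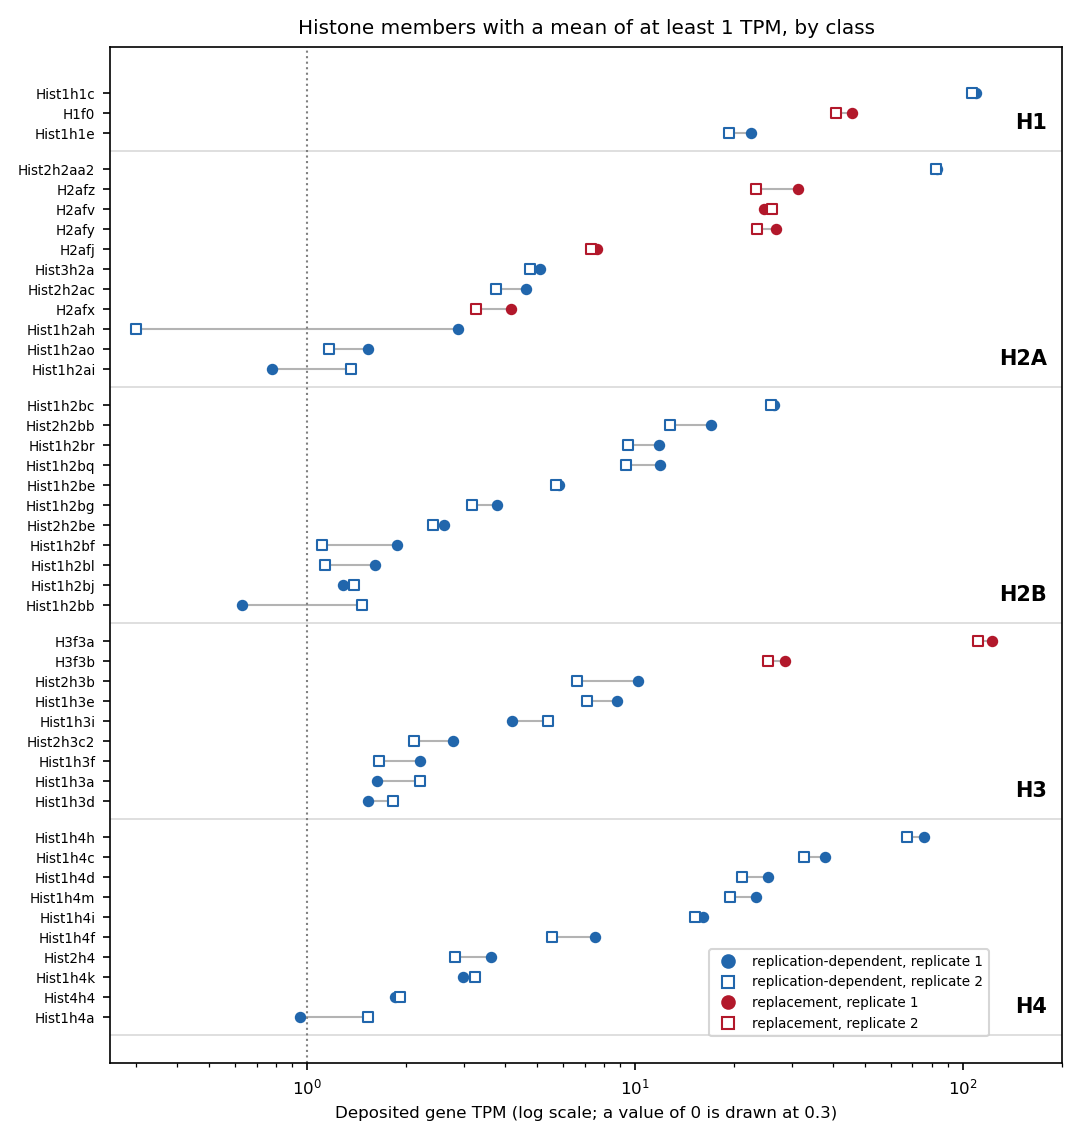
Deposited gene TPM (horizontal axis, log scale, a value of 0 drawn at 0.3) of every member with a mean of at least 1 TPM, grouped by class, with replicate 1 as filled circles and replicate 2 as open squares, and the dotted line at 1 TPM. In H1, H2A and H4 a replication-dependent gene has the highest deposited TPM of its class (Hist1h1c, Hist2h2aa2, Hist1h4h). The value of Hist2h2aa2 is best read as that of the pair with Hist2h2aa1, which has the same coding sequence. In H3 the replacement genes H3f3a and H3f3b lie above all others. With lengths up to the stem-loop Hist1h4c and Hist1h4d lie above Hist1h4h.

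The Hist1 cluster on chromosome 13 gave 75.8% of replication-dependent RNA from 54 members, and Hist2 genes gave 22.8% from 10. The 2 Hist3 genes gave 1.01% and Hist4h4 gave 0.361%. Genes that are known from germ cells were at 0 counts in both libraries. These were the testis linker histones Hist1h1t and H1fnt, the oocyte linker histone H1foo, the testis core histones Hist1h2aa and Hist1h2ba, and H2afb1, H2afb2 and H2afb3, which encode short H2A variants. A count of 0 allows, at 3 counts, up to 0.0914 TPM for H1fnt in replicate 2 and up to 0.473 TPM for the H2afb genes in replicate 1, for counting error only. In all, 16 of 82 members were at 0 counts in both libraries, against 6181 of all 22028 annotated protein-coding genes. Of the 16 members, 9 had a posterior standard deviation above 0, so some reads could also have come from them, and 7 had one of 0.

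How reads were divided among near-copies bears on many of these values. The gene tables give a posterior standard deviation of each count. A detected member was called divided where this passed 5% of its count in either library. By this rule 37 of 66 detected members were divided, all of them replication-dependent, and 0 of 10 replacement members, against 5.33% of detected protein-coding genes. Divided members had another member of equal coding length in 36 of 37 cases, at a median of 5 mismatched bases, and 33 lay within 10. Among the 29 detected members that were not divided, 19 had such a partner, at a median of 40. The 6 undivided members within 10 mismatches of a partner were Hist2h2aa2, Hist1h2bc, Hist1h3e, Hist1h2be, Hist1h4h and Hist1h4i, and the divided members Hist2h2ac, Hist3h2ba and Hist1h2bb had 42, 35 and 20 mismatches to theirs. Leaving out divided members took the replication-dependent sum from 524 to 426 TPM, so most of the sum rests on members not called divided. The rule does not show that these members shared no reads. Hist2h2aa2, which was not called divided, has the same coding sequence as Hist2h2aa1.

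The transcript tables hold a separate quantification in the layout of kallisto, and its transcript TPM were summed per gene. Of 50 members at a mean of 1 TPM in either quantification, 15 differed by at least 1.5-fold the same way in both libraries (8 higher and 7 lower in the kallisto layout), against 7.74% of all genes compared. They included 9 of 24 divided members and 6 of 26 others, and 1 of 8 replacement members (H2afj). The 6 others include Hist1h4n and Hist1h2ap, which the rule leaves out at 0 counts although their posterior standard deviations were above 0. Hist1h2bq and Hist1h2br together were at 23.71 and 18.86 TPM in the RSEM gene table and at 0.119 and 0.886 in the kallisto layout, the widest disagreement among members with over 5 TPM in the RSEM table. Hist2h2aa1 went the other way, from 1.18 and 0 TPM to 32.3 and 31.4. The sum of Hist2h2aa1 and Hist2h2aa2 was 84.37 and 82.43 TPM in the RSEM table and 93.4 and 92.9 in the kallisto layout, so the pair as a whole moved little. The summed replication-dependent level was also close in both, at 524 and 496 TPM.

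**Figure D3:**
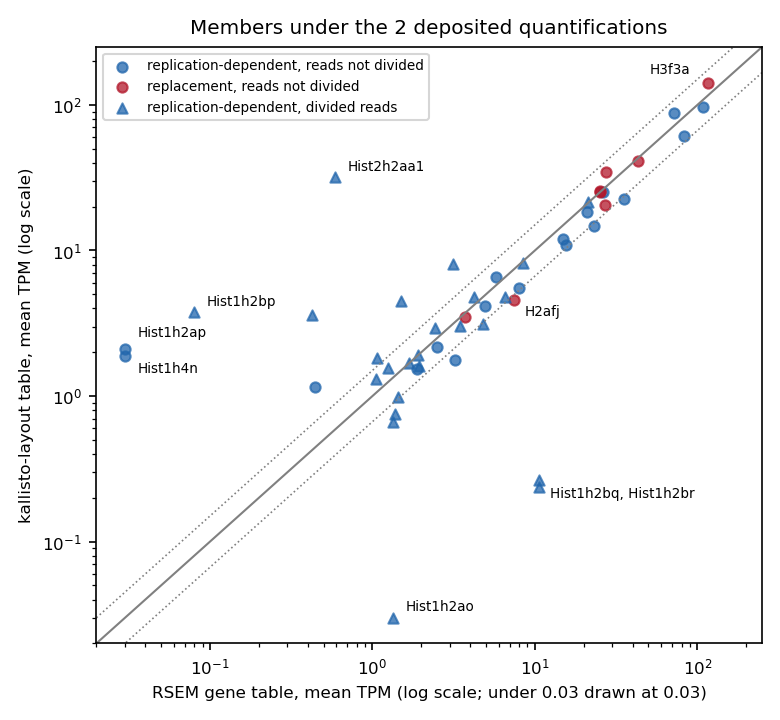
Mean TPM of the 50 members in the RSEM gene table (horizontal) and in the kallisto-layout table summed per gene (vertical), both on log scales, with triangles for members with divided reads, the solid line at equality and dotted lines at 1.5-fold. Hist2h2aa1, Hist1h2bp, Hist1h2ap and Hist1h4n lie far above the line, and Hist1h2ao, Hist1h2bq and Hist1h2br far below it. Hist1h2ap and Hist1h4n, at 0 counts in the RSEM table, are not drawn as divided.

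The annotated lengths of the replication-dependent genes do not all end at the stem-loop. Of the 44 members with one, 22 have transcripts that run over 100 bases past it and 22 end within 100 bases. The distance past the loop ranged from 3 to 4884 bases. The former 22 summed to 249.67 and 228.56 TPM and the latter to 204.75 and 187.78. TPM divides counts by length, so a gene whose mature mRNA ends at the loop gets too low a TPM under a longer annotation. Where all counts were taken to come from the part up to the loop, Hist1h1c was at 252 TPM in place of 108, Hist1h4c at 93.9 in place of 35.3, Hist1h4d at 88.4 in place of 23.2 and Hist1h1e at 56.0 in place of 20.9. Hist1h4h, whose annotated transcript runs 46 bases past its loop, was at 80.5 in place of 71.5. On that scale Hist1h4h lay below Hist1h4c and Hist1h4d, and the replication-dependent sum was 937 TPM. Hist1h1c then stood above H3f3a. These are upper values, since where along a transcript the reads lie cannot be seen in these tables. The deposited values are no lower bound, as the kallisto layout gave 14.8 TPM for Hist1h4d and 22.7 for Hist1h4c.

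**Figure D4:**
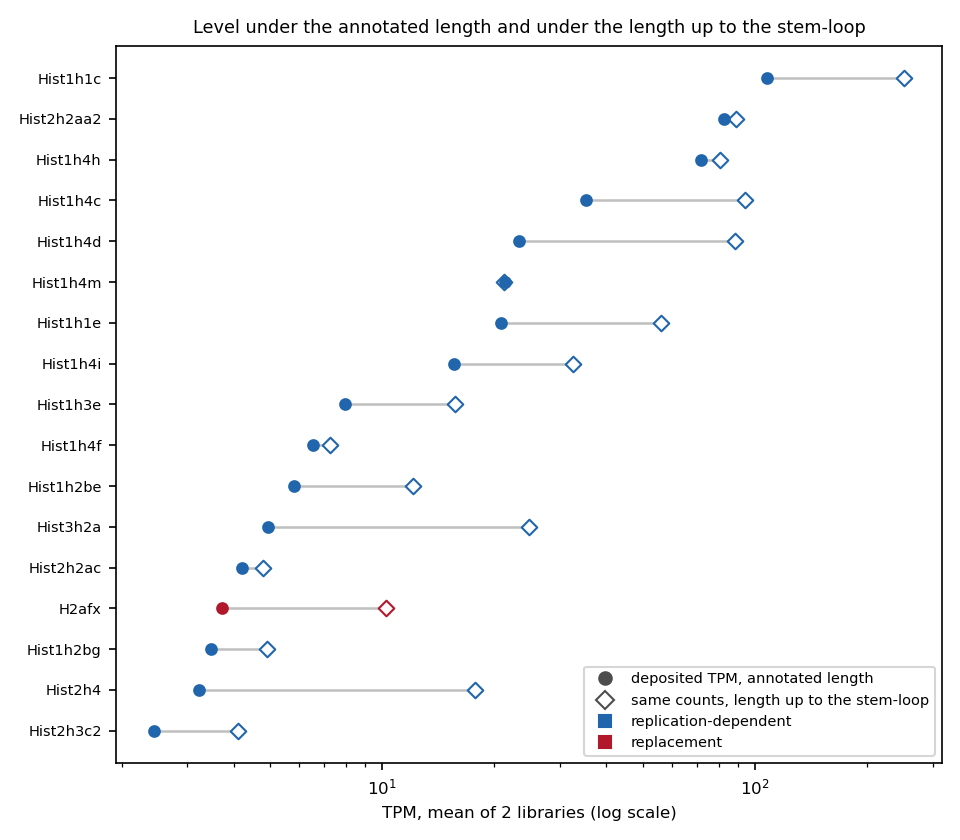
Mean TPM (horizontal axis, log scale) of the members with a stem-loop and a deposited mean of at least 2 TPM, as deposited (filled circles) and with the same counts over the length up to the stem-loop (open diamonds). Hist1h4h and Hist2h2aa2 barely move, while Hist1h1c, Hist1h4c, Hist1h4d and Hist1h1e rise by a factor of 2 or more.

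Promoters from RefSeq (build GRCm38.p6, 250 bases before to 50 after the gene start) matched 74 of the 82 members. They were searched on both strands for the letters CCAAT (the site of the factor NF-Y), for TATAAA (the TATA box), for ATTTGCAT (the octamer bound by Oct1 at H2B genes) and for GGGCGG (the GC box bound by Sp1). The letters CCAAT were in 52 of 61 replication-dependent promoters and in 9 of 13 replacement promoters, against 37.8% of all promoters. CCAAT was in every matched promoter of replication-dependent H1, H2A, H2B and H3 genes (5, 18, 16 and 10) and in 3 of 12 of H4. The letters GGGCGG were in 9 of 12 H4 and 4 of 5 H1 promoters but in 1 of 16 of H2B, and in 23 of 61 replication-dependent promoters in all (37.7%), close to the 35.6% of all promoters. TATAAA was in 34 of 61 replication-dependent and 0 of 13 replacement promoters, against 14.1% of all. The octamer was in 7 of 18 H2A and 6 of 16 H2B promoters, in 0 of the H1, H3 and H4 ones, and in 1.74% of all. H2A and H2B genes that start close together on opposite strands have overlapping promoter windows. The same letters can then be counted for both genes, so these promoters are not all separate stretches. These are matches of letters and not measured binding.

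Some H2A and H2B genes lie head to head. Start sites of 13 pairs of members faced away from each other within 1000 bases, 12 of them an H2A with an H2B gene and 1 an H2B with an H3 gene. The highest H2A gene, Hist2h2aa2, was in no such pair. In the pair Hist1h2ac and Hist1h2bc, with 250 bases between the starts, Hist1h2ac was at 0.47 and 0.35 TPM and Hist1h2bc at 26.48 and 25.96. The RNA on the sides of the same short stretch differed far beyond the spread of the libraries. With the length up to its stem-loop Hist1h2ac was at 2.98 and 2.19 TPM, which narrows the gap but leaves it below Hist1h2bc. Hist1h2ac was divided (posterior standard deviation over 5% of its count), and Hist1h2bc was not. In the pair Hist2h2ac and Hist2h2be the sides were closer, at 4.64 and 3.76 TPM against 2.61 and 2.41. The stretch between the first pair is printed as the Hist1h2ac promoter because the genes on its sides have such unequal levels, and the Hist1h4h promoter is printed as the highest gene of the class that mostly lacks CCAAT. Capitals mark the 4 motifs on either strand, ATTGG being CCAAT and ATGCAAAT the octamer on the other strand.
Hist1h2ac (GRCm38.p6, chr13:23683910-23684209, minus strand): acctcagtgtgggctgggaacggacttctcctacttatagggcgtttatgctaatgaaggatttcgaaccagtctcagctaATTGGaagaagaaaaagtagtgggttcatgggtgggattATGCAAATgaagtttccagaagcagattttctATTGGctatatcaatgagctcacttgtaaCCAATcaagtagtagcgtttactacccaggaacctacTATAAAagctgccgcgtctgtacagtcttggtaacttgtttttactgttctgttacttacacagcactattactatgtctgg
Hist1h4h (GRCm38.p6, chr13:23530794-23531093, plus strand): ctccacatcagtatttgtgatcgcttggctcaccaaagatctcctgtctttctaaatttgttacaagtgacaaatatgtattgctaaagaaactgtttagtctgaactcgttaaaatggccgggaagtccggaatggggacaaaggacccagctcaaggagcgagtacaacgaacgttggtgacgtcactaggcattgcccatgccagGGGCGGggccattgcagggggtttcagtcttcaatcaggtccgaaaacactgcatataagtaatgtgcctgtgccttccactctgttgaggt

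The printed Hist1h2ac promoter held 3 CCAAT matches, 1 octamer and 1 TATAAA. The Hist1h4h promoter held 1 GGGCGG and no match to the other 3 motifs.

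Some replacement genes have several transcripts, and their split was read from the transcript tables as a share of the gene's TPM. For H2afy, transcript H2afy-202 held 67.8% ± 0.85 and H2afy-201 held 0.851% ± 0.48 (SD, n = 2). These transcripts differ by a pair of mutually exclusive coding exons, which distinguish the macroH2A1.1 and macroH2A1.2 proteins. The exon of H2afy-202 is 91 bases long (chr13:56088252-56088342) and that of H2afy-201 is 100 (chr13:56089758-56089857). In the kallisto layout their shares were 59.3% and 13.6%, so H2afy-202 led in both but the share of H2afy-201 depended on the quantification. For H3f3a, H3f3a-201 held 51.0% ± 2.2 and H3f3a-207 held 42.0% ± 1.9, against 37.7% and 46.9% in the kallisto layout, which reverses their order. For H3f3b, the noncoding H3f3b-204 held 49.1% ± 2.5 and the coding H3f3b-201 held 45.9% ± 3.4, while the kallisto layout gave 33.0% and 6.80% and placed 53.7% on H3f3b-202. H2afv was split evenly, 51.8% ± 0.60 to H2afv-202 and 48.2% ± 0.60 to H2afv-201, and H2afz-201 held 94.1% ± 7.6 of H2afz.

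The libraries were compared as replicate 2 over replicate 1, from counts scaled with TMM factors, with 1 library a side and so no test. Of 25 members that averaged 100 expected counts or more, 0 differed by 1.5-fold, against 1.22% of all such genes. At a mean of at least 10 counts 3 of 48 members passed it: Hist1h2ah, Hist1h2bb and Hist1h4a, with 22 and 0, 7 and 16, and 11 and 18 counts. Of all 14361 genes at that minimum, 616 passed it upward and 674 downward, so the 3 members are no excess over the background. Among the 25 the 95% interval of counting error lay off 0 for 3. The matching share over all genes was not computed, so this count cannot be set against a background. H2afz, with 753 counts in replicate 1 and 613 in replicate 2, differed by -0.24 on the log2 scale (interval -0.40 to -0.09). H2afv, with 630 and 701 counts, differed by 0.21 (0.05 to 0.36). The sum of this pair differed by -0.02 (-0.13 to 0.09), so the H2A.Z genes lay on opposite sides of 0 while the interval of their sum held 0. Hist1h1c, with 4085 and 4224 counts, differed by 0.10 (0.04 to 0.16). At a mean of at least 10 counts the median log2 ratio was -0.09 over 38 replication-dependent members, or 0.0010 with spike-in scaling, and -0.03 over 10 replacement members, or 0.058 with spike-in scaling, beside -3.6e-05 over 14361 genes. In summed counts all members together differed by -0.0011 (-0.03 to 0.03). The TPM sum was lower in replicate 2 while the TMM-scaled counts did not differ beyond counting error.

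**Figure D5:**
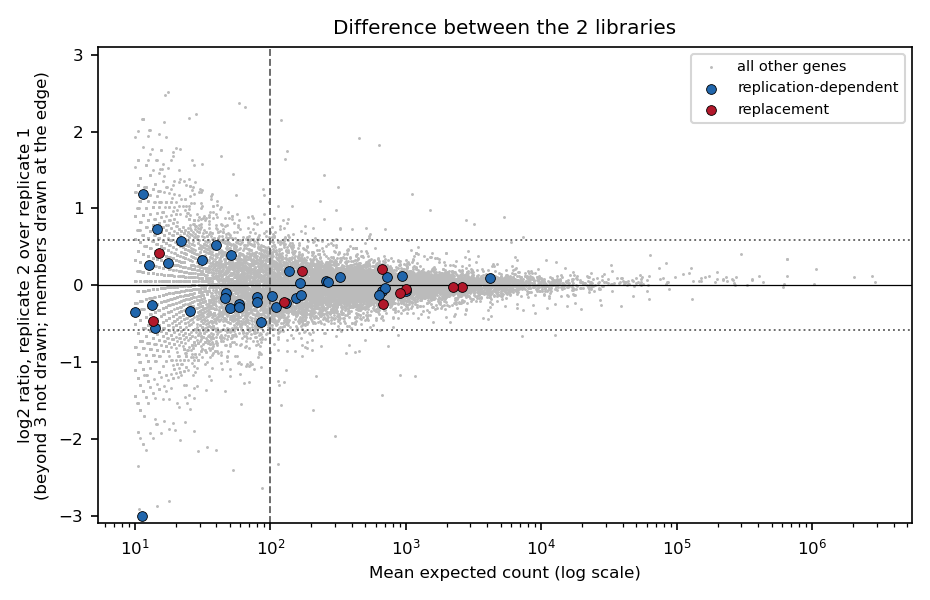
Log2 ratio of replicate 2 over replicate 1 (vertical, TMM-scaled counts) against the mean expected count (horizontal, log scale) for genes with a mean of at least 10, other genes in grey and members coloured; dotted lines mark 1.5-fold and the dashed line 100 counts. To the right of 100 counts no member passes the dotted lines, and the member at the lower edge is Hist1h2ah, with 22 counts in replicate 1 and 0 in replicate 2.

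Markers of endothelial cells were lower in replicate 2 for 6 of 7 genes, with a median log2 ratio of -0.42 and a range of -0.79 to 0.17. Their median level was 6.36 TPM in replicate 1 and 4.02 in replicate 2. Muscle fibre markers differed by a median of 0.09 (0.02 to 0.12 over 7 genes), and their means ran from 6761 to 18503 TPM, as the labelled tissue would have. Leukocyte markers had a median ratio of -0.05 over 9 genes, and Cd3e was at 0 counts. Erythroid, fibroblast and satellite cell lists had medians of -0.21, 0.12 and -0.27. The part of these cell types in the H2afz and H2afv values was not tested.

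The genes that make and handle histones were read from lists of known genes. Histone mRNA transcription and 3′ processing had 18 of its 20 genes at 1 TPM in both replicates. Their median was 3.86 ± 0.13 TPM (SD, n = 2). The highest were Sympk, the scaffold of the cleavage complex, at 31.21 and 27.08 TPM, Srrt at 15.34 and 10.00, and Upf1, a helicase of histone mRNA decay, at 14.07 and 11.10. Slbp, the stem-loop binding protein, was at 2.86 and 2.77 TPM. Of the U7 particle that cleaves histone mRNA, the Sm-like subunit Lsm10 was at 4.28 and 4.65 TPM and Lsm11 at 0.68 and 0.61. Zfp473, the only other listed gene under 1 TPM, had 0 and 1 counts.

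Of 15 chaperones of H3 and H4, 12 were at 1 TPM or more, led by Rbbp7 at 40.18 and 36.07 TPM, Ipo4 at 35.66 and 31.68 and Rbbp4 at 17.83 and 17.69. Hira, which deposits H3.3 outside S phase, was at 12.85 and 11.66 TPM. The 3 below 1 TPM were Chaf1a at 0.21 and 0.84, Chaf1b at 0.17 and 0.21 and Asf1b at 0.14 and 0.28. Chaf1a and Chaf1b encode subunits of the replication-coupled chaperone CAF-1, and Rbbp4, which encodes its small subunit, was among the highest. Asf1a, the paralog of Asf1b, was at 10.95 and 8.92 TPM. All 11 chaperones and exchangers of H2A, H2B and H2A.Z reached 1 TPM, and their median was 28.2 ± 0.29 TPM. Nap1l4 led at 81.85 and 81.84 TPM, followed by Npm1 at 60.54 and 53.89 and Set at 47.00 and 44.83.

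Of 24 genes of DNA replication and cell division, 9 reached 1 TPM in each replicate, and the list's median was 0.395 ± 0.021 TPM. The highest were Pcna at 9.18 and 7.87 TPM, Rrm1 at 7.72 and 7.36 and Ccne2 at 3.46 and 4.05. Mki67 and Top2a, which mark dividing cells, were at 0.17 and 0.08 TPM and at 0.11 and 0.02. Hist1h1c, Hist2h2aa2 and Hist1h4h were each above every gene of this list in both libraries. Hist1h1a and Hist1h1b, linker genes of dividing cells, were under 0.5 TPM as well.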

How the data were processed

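Total RNA of 2 gastrocnemius libraries was quantified by the authors against mm10 with GENCODE M21, per the labels and the deposited readme. Tool versions: not given in the sources used here. The deposited gene tables have the RSEM layout and hold expected counts, TPM and a posterior standard deviation of the count. A further deposited transcript table has the kallisto layout with estimated counts and TPM. Gene symbols, positions and transcript sequences came from GENCODE M21 (all 55536 identifiers matched). No filter was applied to TPM values. Expected counts were rounded for ratios only, scaled with TMM factors (edgeR 4.0.16) with a prior of 0.5 counts, and given exact binomial (Clopper-Pearson) 95% intervals, which cover counting error only, in Python 3.11.15 with scipy 1.17.1. DESeq2 1.42.0 size factors, library totals and spike-in totals were alternatives. Library totals of 35350142 and 35580757 set the precision. The ratio script was tested on simulated data. No source used here says whether counting used strand, so reads of a gene and of an overlapping antisense gene (H3f3a and H3f3aos) may be mixed.

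The members and gene lists were chosen with earlier results of these data known. Named were members with a mean of at least 1 TPM, germ-cell members, and per other list the 3 highest genes and those at 0 counts. Members under 1 TPM and list genes outside this rule were named after their values were seen.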

Additional observations from a re-analysis of the deposited data

How the results depend on the processing

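No paired analysis was possible because both libraries belong to 1 group. No ratio between libraries can be had with a library left out. Without either replicate, members at 1 TPM numbered 43 and 43, the replication-dependent sum was 497 to 550 TPM, the replacement sum 261 to 292, their ratio 0.526 to 0.530, and the replacement shares 24.5% to 25.8% (H1), 46.8% to 48.1% (H2A) and 82.7% to 83.1% (H3). In the kallisto layout the replacement sum was 298 TPM in place of 277, the ratio 0.601 in place of 0.528, and the replacement shares 26.3% of H1, 45.8% of H2A and 85.0% of H3. H3f3b then held 12.6% of H3.3 in place of 18.8%. Without members with divided reads the replication-dependent sum was 426 TPM, the ratio 0.648, and the replacement shares 50.3% of H2A and 94.8% of H3. With lengths up to the stem-loop, an alternative chosen after seeing the data, the sum was 937 TPM, the ratio 0.302, and the shares 12.3% of H1, 42.8% of H2A and 76.9% of H3. Members past 1.5-fold between libraries were 16 with no filter on counts, 3 at a minimum of 10 counts (also chosen after seeing the data) and 0 under the other 8 settings, whose minimum was 50 counts or more. The replication-dependent median ratio was -0.15 with library totals, 0.0010 with spike-in totals, -0.035 at a minimum of 100 counts and -0.0047 without divided members, and the replacement median was -0.10 with library totals and 0.058 with spike-in totals. Of 44 named members, 3 moved beyond their counting error with spike-in totals and 7 with kallisto-layout counts, and 16 of 16 transcript shares moved by more than 1 SD in the kallisto layout. The cause of these moves was not tested. With 0 counts the depth allows no level to be read.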

Other observations

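Histone-named rows outside the rule, which have no protein-coding transcript, also held counts. The processed pseudogene Hist1h2al (chr13:51202727-51203065, minus strand) was at 18.75 and 13.21 TPM in the RSEM gene table and at 0 in the kallisto layout. H3f3c, a processed pseudogene of H3.3 on chromosome 2, was at 1.08 and 4.88 TPM, with posterior standard deviations of 11.1 and 15.4 on counts of 8.58 and 41.2. H3f3aos, antisense to H3f3a on chromosome 1, was at 1.85 and 1.23 TPM. All other rows of this kind were under 1 TPM in both libraries.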
